A study of Homo sapiens with 15 samples.

Results

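The genes described here are 39 members of the glycolysis and hypoxia response programme: glucose transporters, the enzymes of glycolysis with their main regulators, the enzymes and transporters that decide the fate of pyruvate and lactate, the oxygen sensor genes HIF1A, EGLN1 and EGLN3, and well-known hypoxia response genes. They were taken by name from 57736 genes of a count table made by RNA-seq, and all 39 were found in it. Of these, 38 passed the filter on low counts, as did 15994 genes in all; EGLN3, with 60 counts over all libraries, did not. The cells were IMR90, a widely used fibroblast line from human fetal lung, in 15 libraries of total RNA that form 5 groups of 3. The groups were growing control cells and 4 kinds of senescent cells: controls, cells carrying a hairpin RNA that targets TXNRD1 (shTXNRD1), cells in the vehicle DMSO, and cells given TRi-1. TXNRD1 is thioredoxin reductase, an enzyme that uses NADPH to keep thioredoxin reduced, and TRi-1 is a compound that inhibits this enzyme. The labels give neither the inducer of senescence, the control used for the hairpin, the oxygen level of the cultures, the dose and time of TRi-1, nor whether the 3 replicates came from separate cultures, so p-values speak only of the spread among these libraries.

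Glycolysis breaks glucose down to pyruvate in the cytosol, and lactate dehydrogenase turns pyruvate into lactate, which leaves the cell through monocarboxylate transporters. The transcription factor HIF-1 raises many of these genes when oxygen is low; its alpha subunit, from HIF1A, is hydroxylated by the EGLN prolyl hydroxylases and then degraded when oxygen is present, so that much of its control is not seen in its mRNA. Senescent fibroblasts no longer divide but stay metabolically active and are known for a high use of glucose.

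Depth was 18033076 to 28909046 counts per library. Levels are given in CPM, a gene's share of the library total after TMM scaling in edgeR. Changes are log2 fold changes from the edgeR quasi-likelihood fit to all 15 libraries, with a standard error (SE) derived from its F test. This SE is the absolute log2 fold change divided by the square root of the F statistic. A gene was called at a Benjamini-Hochberg adjusted p under 0.05. The targeted gene, TXNRD1, averaged 515 CPM in the senescent controls and 22.6 CPM with the hairpin. In cells with TRi-1, which acts on the protein, it averaged 431 CPM against 408 CPM in DMSO. All 13 fibroblast markers were detected in all groups, with summed levels of 16914 to 22606 CPM in the growing controls, 18692 to 22046 in the senescent controls, 12732 to 16986 with shTXNRD1, 17297 to 20668 in DMSO and 13639 to 14850 with TRi-1. The 4 smooth muscle markers summed to 901 to 974 CPM in the growing controls, 623 to 670.0 in the senescent controls, 359.6 to 413 with shTXNRD1, 713 to 734 in DMSO and 541 to 559 with TRi-1. In the same order of groups, the 6 leukocyte genes summed to 15.6 to 26.0, 72.2 to 80.6, 19.1 to 38.8, 56.6 to 73.9 and 91.5 to 93.3 CPM, mostly CD68, and the 6 red cell genes to 0.0822 to 0.188, 29.04 to 32.6, 2.80 to 4.42, 19.8 to 23.4 and 1.32 to 1.86 CPM, mostly the fetal globin HBG2. Both sums were thus higher in senescent than in growing cells and lower with the hairpin, as many members were; of the 3 red cell genes tested, 3 rose with senescence and 3 fell with the hairpin, and of the 3 leukocyte genes tested 1 (CD68) did each. The 6 endothelial genes summed to 109.7 to 134, 162 to 174, 109 to 134, 87.9 to 94.6 and 56.0 to 59.0 CPM and the 6 epithelial genes to 59.8 to 82.3, 49.7 to 55.1, 54.7 to 66.8, 45.1 to 47.6 and 56.1 to 56.7 CPM. The endothelial sum was also higher in senescent controls and lower with the hairpin. Of 5 endothelial genes tested, 4 rose and 0 fell with senescence, and 1 rose and 3 fell with the hairpin. Of all genes, 27.4% rose and 29.5% fell with senescence, and 25.8% and 24.8% with the hairpin. The part of these marker genes in the results was not tested. The keratin genes KRT5 and KRT14, the T-cell gene CD3E and the red cell genes ALAS2 and HBA2 were at 0 in every library, and PTPRC, the pan-leukocyte gene, was at most 0.247 CPM. The mean GC content of the counted transcripts differed between libraries of the same group: growing control 1, shTXNRD1 3 and DMSO 1 lay 0.832, 0.82 and 0.503 percentage points below their group means, at 46.9%, 46.5% and 47.5%, and the other 12 libraries lay between 47.4% and 48.7%. Some of the results that move with this are given with it below, and sizes given without it may move too. In bulk RNA, fewer cells of a type and less RNA per cell cannot be told apart.

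Most members stood higher in senescent than in growing cells. Of the 38 tested, 29 rose, 1 fell and 8 were not called, beside 27.4% of all genes tested that rose and 29.5% that fell (56.9% called in either direction). The median log2 fold change of the members was 0.68 and that of all genes 0.03. All 11 hypoxia response members rose. With shTXNRD1, against senescent controls, 7 of 38 rose and 20 fell, beside 25.8% and 24.8% of all genes (50.7% either way), and the median log2 fold change was -0.32 against -0.01 for all genes. With TRi-1, against DMSO, 9 rose and 5 fell, beside 7.64% and 12.2% (19.9% either way), with a median of 0.11 against 0.01. The 5 became 3 without DMSO 1, DMSO 3 or TRi-1 1, 2 without DMSO 2 or TRi-1 3, and 4 without TRi-1 2. In these settings 8.40% to 9.51% of all genes fell. Of the rises, ENO2, PGAM1 and SLC2A1 were not called without DMSO 1 or TRi-1 3, where 4.78% and 4.74% of all genes rose. SLC2A1 was not called without TRi-1 1 or TRi-1 2 either. The 5 that fell became 8 without the 3 low-GC libraries, where 14.97% of all genes fell. The first and the second of these comparisons share the senescent controls. The map of all members by library shows the higher levels of senescent than growing libraries in most rows and the paler columns of shTXNRD1 in many rows.

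**Figure D1:**
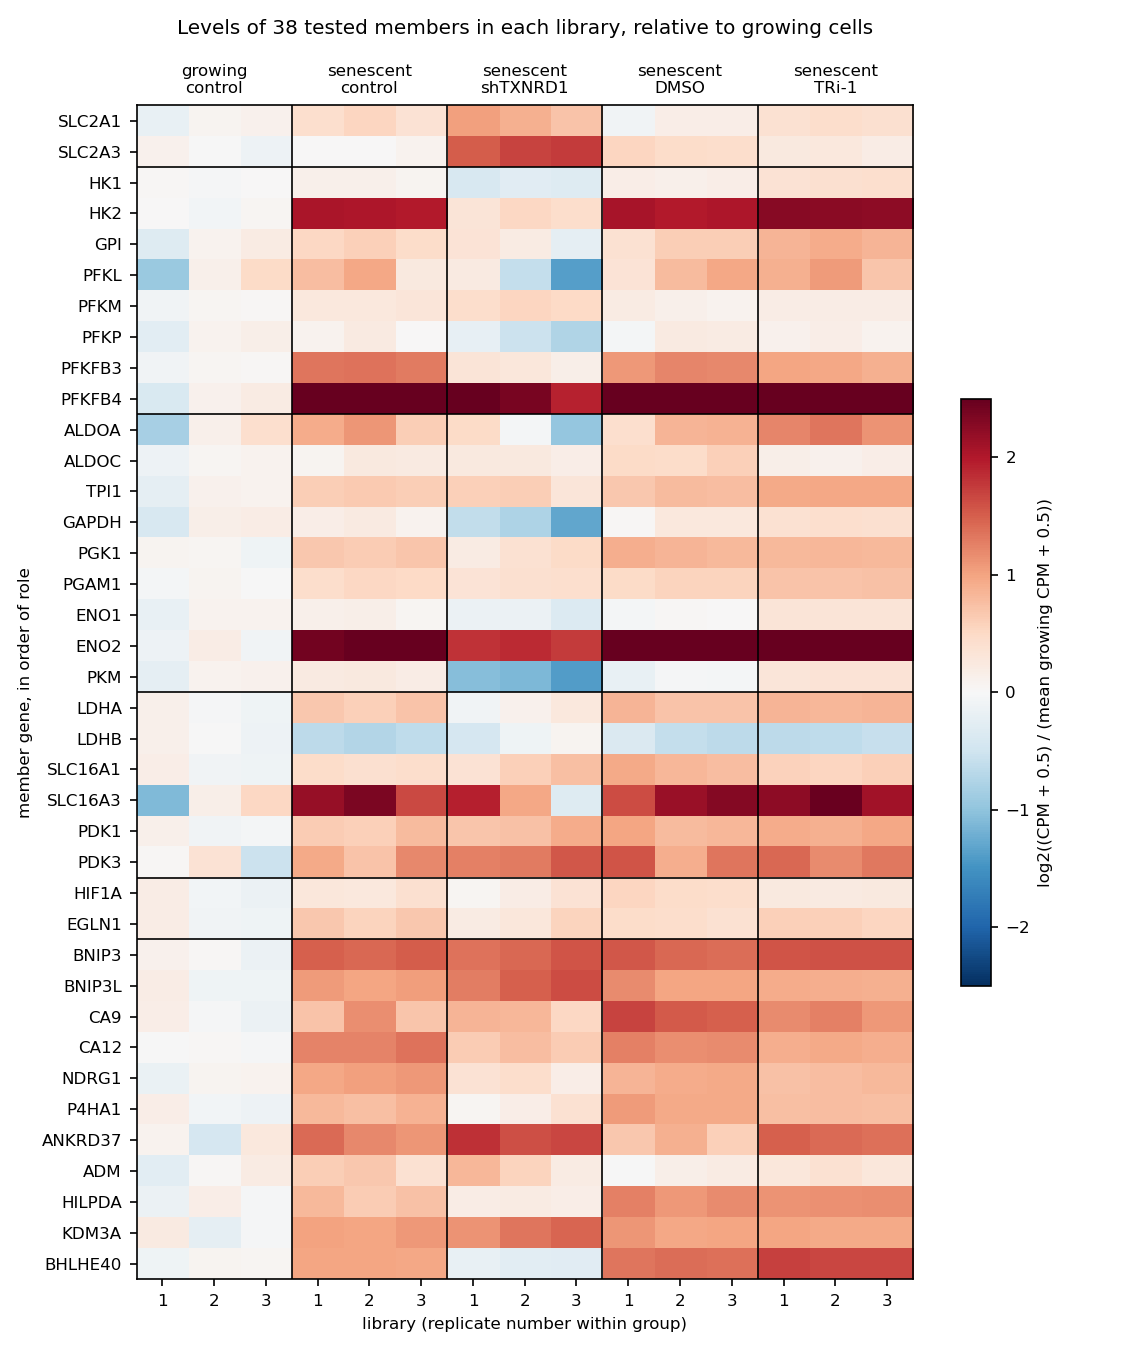
Level of each of the 38 tested members (rows, ordered by role) in each of the 15 libraries (columns, grouped), as log2 of (CPM + 0.5) over the mean of the growing controls + 0.5; values beyond the ends of the colour scale take its end colours, and EGLN3 is left out. Most rows turn red in the 4 senescent groups, and rows such as HK2, PKM and BHLHE40 are paler or blue with shTXNRD1.

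Glucose enters through the transporters SLC2A1 (GLUT1), the main transporter of many cell types, and SLC2A3 (GLUT3), which has a higher affinity for glucose. SLC2A1 stood at 173, 206 and 212 CPM in the growing controls, 263, 284 and 253 in the senescent controls and 403, 363 and 323 in the shTXNRD1 libraries. The growing, senescent and hairpin libraries of SLC2A1 did not overlap and stood in that order from low to high. SLC2A1 rose by 0.44 ± 0.10 log2 units (adjusted p = 0.00141) with senescence and by 0.45 ± 0.10 log2 units (adjusted p = 0.00142) with the hairpin. SLC2A1 stood at 186, 222 and 220.2 CPM in the DMSO libraries and 257, 267 and 259 in the TRi-1 libraries. All 3 TRi-1 libraries lay above all 3 DMSO libraries. The transporter rose by 0.32 ± 0.10 log2 units (adjusted p = 0.0316) with TRi-1, and this call was lost on leaving out some libraries: the change was 0.24 to 0.33 log2 units (adjusted p of 0.0699 to 0.143) without DMSO 1, TRi-1 1, TRi-1 2 or TRi-1 3, with adjusted p-values of 0.00242 to 0.143 over the 18 alternatives run.

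SLC2A3 stood at 95.9, 88.4 and 81.7 CPM in the growing controls, 89.7, 89.0 and 94.1 in the senescent controls and 253, 288 and 301 in the shTXNRD1 libraries. The growing and senescent libraries of SLC2A3 overlapped, and every hairpin library was above both groups. The gene rose by 1.62 ± 0.07 log2 units (adjusted p = 5.02e-10) with the hairpin, 3.08-fold and the largest rise of any member there, while its change with senescence was 0.04 ± 0.07 log2 units (adjusted p = 0.690). Under an offset for transcript GC content the senescence change was 0.18 log2 units (adjusted p = 0.000272). SLC2A3 stood at 129, 122 and 120.3 CPM in the DMSO libraries and 106, 106 and 100.5 in the TRi-1 libraries. The TRi-1 libraries were the lower group: SLC2A3 fell by 0.25 ± 0.07 log2 units (adjusted p = 0.0240). Leaving out a library gave -0.26 to -0.22 log2 units (adjusted p of 0.0540 to 0.0964) without DMSO 1, DMSO 2, TRi-1 1 or TRi-1 3, with adjusted p-values of 0.000130 to 0.0964 over the alternatives. The hairpin and TRi-1 changes of SLC2A3 differed by 1.88 ± 0.10 log2 units (adjusted p = 1.12e-08).

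The entry steps and their regulators comprise the hexokinases HK1 and HK2, the isomerase GPI, the phosphofructokinases PFKL, PFKM and PFKP, and the bifunctional enzymes PFKFB3 and PFKFB4, which make and break fructose 2,6-bisphosphate, the main activator of phosphofructokinase. Of these 8, 5 rose and 0 fell with senescence (median log2 fold change 0.61), 1 rose and 7 fell with the hairpin (median -0.76), and 2 rose and 1 fell with TRi-1 (median 0.17). Among all genes tested, 27.4% rose and 29.5% fell with senescence, 25.8% and 24.8% with the hairpin, and 7.64% and 12.2% with TRi-1. The fall with TRi-1 lay near its share.

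HK2, the inducible hexokinase bound to mitochondria, stood at 77.5, 72.7 and 79.5 CPM in the growing controls, 316, 311 and 304 in the senescent controls and 95.7, 109 and 105 in the shTXNRD1 libraries. HK2 was low in all growing libraries, high in all senescent controls and only a little above growing cells with the hairpin, with no overlap between the 3 groups. It rose by 2.02 ± 0.06 log2 units (adjusted p = 1.16e-12) with senescence, 4.05-fold, and fell by 1.59 ± 0.06 log2 units (adjusted p = 5.52e-11) with the hairpin, to 0.333 times the senescent level. HK2 stood at 320.0, 303 and 312 CPM in the DMSO libraries and 372, 366 and 362 in the TRi-1 libraries. All TRi-1 libraries were above the DMSO libraries, and HK2 rose by 0.24 ± 0.06 log2 units (adjusted p = 0.00821). With no filter on low counts this was 0.23 log2 units (adjusted p = 0.0521), with adjusted p-values of 0.000522 to 0.0521 over the alternatives. The level of HK2 in growing control 1, the low-GC library of its group, lay between those of the other 2.

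HK1, the constitutive hexokinase, stood at 183, 176 and 180.4 CPM in the growing controls, 196, 195 and 188 in the senescent controls and 137, 148 and 144 in the shTXNRD1 libraries. HK1 differed by 0.10 ± 0.05 log2 units (adjusted p = 0.0717) between senescent and growing cells and fell by 0.43 ± 0.05 log2 units (adjusted p = 3.08e-06) with the hairpin. Over the alternatives its senescence change ran from 0.06 to 0.19 log2 units (adjusted p of 0.00202 to 0.527), and some of them called HK1 higher. Its hairpin libraries lay below every growing and senescent control library. HK1 stood at 202, 196 and 201 CPM in the DMSO libraries and 231, 239 and 242 in the TRi-1 libraries. The gene rose by 0.25 ± 0.05 log2 units (adjusted p = 0.00188) with TRi-1, again without overlap.

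PFKFB4 stood at 4.01, 5.84 and 6.30 CPM in the growing controls, 53.8, 58.3 and 49.3 in the senescent controls and 33.4, 29.9 and 21.8 in the shTXNRD1 libraries. PFKFB4 was nearly absent from growing cells and clearly present in every senescent library. It rose by 3.33 ± 0.17 log2 units (adjusted p = 4.61e-10), 10.0-fold, with senescence and fell by 0.92 ± 0.15 log2 units (adjusted p = 0.000118) with the hairpin. In DMSO it stood at 46.1, 48.2 and 49.8 CPM and with TRi-1 at 54.5, 55.5 and 52.8 CPM, a change of 0.18 ± 0.14 log2 units (adjusted p = 0.435); with the compared groups alone it was 0.17 log2 units (adjusted p = 0.0356), with adjusted p-values of 0.0356 to 0.654 over the alternatives.

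PFKFB3, the form with the strongest kinase activity of the family, stood at 68.6, 74.8 and 74.7 CPM in the growing controls, 184, 186 and 179 in the senescent controls and 90.8, 88.4 and 80.9 in the shTXNRD1 libraries. The gene rose by 1.33 ± 0.06 log2 units (adjusted p = 1.98e-10) with senescence and fell by 1.08 ± 0.06 log2 units (adjusted p = 5.30e-09) with the hairpin, which left it just above the growing libraries. PFKFB3 stood at 155, 170.3 and 168 CPM in the DMSO libraries and 144, 143 and 135 in the TRi-1 libraries. PFKFB3 fell by 0.23 ± 0.06 log2 units (adjusted p = 0.0171) with TRi-1, the same direction as with the hairpin. That last call was lost on leaving out some libraries: -0.21 to -0.20 log2 units (adjusted p of 0.0660 to 0.0876) without DMSO 2, DMSO 3 or TRi-1 3, with adjusted p-values of 9.38e-07 to 0.0876 over the alternatives.

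GPI, which interconverts glucose 6-phosphate and fructose 6-phosphate, stood at 144, 192 and 208 CPM in the growing controls, 259, 276 and 251 in the senescent controls and 232, 208 and 155 in the shTXNRD1 libraries. Growing control 1 and shTXNRD1 3, both low in GC, were the lowest of their groups. GPI rose by 0.53 ± 0.14 log2 units (adjusted p = 0.00626) with senescence and fell by 0.40 ± 0.14 log2 units (adjusted p = 0.0310) with the hairpin. Leaving out single libraries gave a hairpin change of -0.44 to -0.26 log2 units (adjusted p of 0.0539 to 0.126) without senescent control 1, senescent control 2, shTXNRD1 2 or shTXNRD1 3, with adjusted p-values of 0.00127 to 0.170 over the alternatives. The level was 237, 277 and 280.1 CPM in DMSO and 326, 346 and 329.7 CPM with TRi-1, where the change was 0.34 ± 0.14 log2 units (adjusted p = 0.122). The TRi-1 change of GPI was 0.33 log2 units (adjusted p = 0.0104) with the compared groups alone and 0.26 log2 units (adjusted p = 0.00269) without the low-GC libraries, with adjusted p-values of 0.00269 to 0.343 over the alternatives.

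Of the 3 phosphofructokinase genes, PFKM, the muscle form, rose by 0.28 ± 0.05 log2 units (adjusted p = 0.000417) with senescence and by 0.22 ± 0.05 log2 units (adjusted p = 0.00296) with the hairpin. PFKP, the platelet form, fell by 0.60 ± 0.13 log2 units (adjusted p = 0.00186) with the hairpin and had a senescence change of 0.11 ± 0.13 log2 units (adjusted p = 0.488). PFKL, the liver form, fell by 1.14 ± 0.40 log2 units (adjusted p = 0.0306) with the hairpin. Its transcript has the highest GC content of the members (63.5%), and its hairpin libraries ran from 35.8 CPM in replicate 1 to 11.4 in the low-GC replicate 3. For PFKL, leaving out a library gave -1.11 to -0.83 log2 units (adjusted p of 0.0721 to 0.0992) without senescent control 1, senescent control 2, shTXNRD1 2 or shTXNRD1 3, with adjusted p-values of 0.00206 to 0.101 over the alternatives. Under the GC offset the hairpin change of PFKL was -0.72 log2 units (adjusted p = 0.00206).

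The lower steps run from aldolase to pyruvate kinase. Of these 9 members, 5 rose and 0 fell with senescence (median log2 fold change 0.49), 0 rose and 6 fell with the hairpin (median -0.32), and 4 rose and 1 fell with TRi-1 (median 0.21). The shares of all genes that rose and fell were 27.4% and 29.5%, 25.8% and 24.8%, and 7.64% and 12.2% in this order. The fall with TRi-1 lay near its share.

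ENO2, the neuronal enolase, stood at 18.1, 22.7 and 18.7 CPM in the growing controls, 108, 115 and 114 in the senescent controls and 71.0, 73.8 and 67.7 in the shTXNRD1 libraries. ENO2 was several times higher in every senescent library than in growing cells, and its hairpin libraries lay between the 2 control groups. It rose by 2.501 ± 0.08 log2 units (adjusted p = 2.81e-12), 5.66-fold, with senescence and fell by 0.66 ± 0.07 log2 units (adjusted p = 3.91e-06) with the hairpin. ENO2 stood at 120.4, 129 and 125 CPM in the DMSO libraries and 151, 149 and 153 in the TRi-1 libraries. ENO2 rose by 0.27 ± 0.07 log2 units (adjusted p = 0.0152) with TRi-1; leaving out a library gave 0.25 to 0.26 log2 units (adjusted p of 0.0551 to 0.0644) without DMSO 1 or TRi-1 3, with adjusted p-values of 0.00108 to 0.0644 over the alternatives.

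PKM, pyruvate kinase, which makes pyruvate and ATP in the last step, stood at 1987, 2483 and 2527 CPM in the growing controls, 2718, 2768 and 2650.1 in the senescent controls and 1117, 1075 and 885 in the shTXNRD1 libraries. Its hairpin libraries lay below all growing and senescent controls: PKM fell by 1.40 ± 0.10 log2 units (adjusted p = 3.70e-08), to 0.378 times the senescent level, and its senescence change was 0.22 ± 0.09 log2 units (adjusted p = 0.0635). Over the alternatives that senescence change ran from -0.03 to 0.29 log2 units (adjusted p of 0.0167 to 0.520). Some of them called PKM higher, and the GC offset gave -0.03 log2 units (adjusted p = 0.489). PKM stood at 2057, 2272 and 2263 CPM in the DMSO libraries and 2890.0, 2963 and 2942 in the TRi-1 libraries. All TRi-1 libraries were above the DMSO libraries, where PKM rose by 0.42 ± 0.09 log2 units (adjusted p = 0.00692). The table gives counts per gene, so the PKM1 and PKM2 splice forms were not separated.

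GAPDH, often used as a reference gene, stood at 2908, 4258 and 4378 CPM in the growing controls, 4302, 4513 and 4097 in the senescent controls and 2495, 2256 and 1569 in the shTXNRD1 libraries. GAPDH was the most abundant member per length in each of the 5 groups, at 1935 CPM per kb in the senescent controls. It fell by 1.03 ± 0.17 log2 units (adjusted p = 0.000190) with the hairpin, 2.04-fold lower, with no overlap between the groups. Without the 3 low-GC libraries the change was -0.86 log2 units (adjusted p = 1.03e-09). The senescence change was 0.16 ± 0.16 log2 units (adjusted p = 0.421), with growing control 1 well below the other 2 growing libraries. In DMSO it stood at 3941, 4644 and 4602 CPM and with TRi-1 at 5027, 5124 and 5072 CPM, a change of 0.21 ± 0.16 log2 units (adjusted p = 0.425). GAPDH alone held 0.420% of all counts in the senescent controls and 0.229% with the hairpin.

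ALDOA, the main aldolase, stood at 229, 449.9 and 550.0 CPM in the growing controls, 776, 875 and 628 in the senescent controls and 572, 394 and 208 in the shTXNRD1 libraries. ALDOA has a transcript GC content of 60.8% and spread widely within groups, lowest each time in the library of lowest GC. It rose by 0.89 ± 0.34 log2 units (adjusted p = 0.0417) with senescence and fell by 0.96 ± 0.34 log2 units (adjusted p = 0.0345) with the hairpin. Leaving out single libraries gave a senescence change of 0.60 to 0.96 log2 units (adjusted p of 0.0693 to 0.145) without growing control 1, growing control 2, senescent control 1 or senescent control 2, with adjusted p-values of 0.0152 to 0.145 over the alternatives. For the hairpin it gave -0.96 to -0.66 log2 units (adjusted p of 0.0737 to 0.104) without senescent control 1, senescent control 2, shTXNRD1 2 or shTXNRD1 3, with adjusted p-values of 0.00755 to 0.114 over the alternatives. Under the GC offset the changes were 0.57 log2 units (adjusted p = 0.0152) with senescence and -0.66 log2 units (adjusted p = 0.00755) with the hairpin. The part of library GC in these changes was not tested.

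PGK1, the first enzyme of the pathway to yield ATP, stood at 522, 515 and 462 CPM in the growing controls, 802, 778 and 808 in the senescent controls and 577, 651 and 692 in the shTXNRD1 libraries. Its transcript has a GC content of 43.3%, and its senescent controls were above every other library of the 3 groups. It rose by 0.67 ± 0.07 log2 units (adjusted p = 9.40e-07) with senescence and fell by 0.31 ± 0.07 log2 units (adjusted p = 0.00126) with the hairpin. In DMSO and with TRi-1 PGK1 overlapped, at 935, 897 and 878 CPM and 876, 887 and 875 CPM, with a change of -0.04 ± 0.07 log2 units (adjusted p = 0.731).

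ENO1, the general enolase, stood at 982, 1184 and 1196 CPM in the growing controls, 1229, 1237 and 1165 in the senescent controls and 1009, 1012 and 881 in the shTXNRD1 libraries. ENO1 had a senescence change of 0.11 ± 0.07 log2 units (adjusted p = 0.224) and fell by 0.32 ± 0.08 log2 units (adjusted p = 0.00248) with the hairpin. Under the GC offset the hairpin change was -0.05 log2 units (adjusted p = 0.604), with adjusted p-values of 3.20e-05 to 0.639 over the alternatives. ENO1 stood at 1077, 1139 and 1132 CPM in the DMSO libraries and 1397, 1399.8 and 1393 in the TRi-1 libraries. The TRi-1 libraries were all above the DMSO libraries, and ENO1 rose by 0.32 ± 0.08 log2 units (adjusted p = 0.00769); under the GC offset this was 0.18 log2 units (adjusted p = 0.0934), with adjusted p-values of 3.58e-05 to 0.131 over the alternatives.

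Of the other lower-step members, TPI1, triose phosphate isomerase, rose by 0.63 ± 0.09 log2 units (adjusted p = 4.30e-05) with senescence, and its hairpin change was -0.12 ± 0.09 log2 units (adjusted p = 0.308). PGAM1, phosphoglycerate mutase, rose by 0.49 ± 0.05 log2 units (adjusted p = 1.13e-06) with senescence and by 0.19 ± 0.05 log2 units (adjusted p = 0.0167) with TRi-1; leaving out a library gave 0.16 to 0.18 log2 units (adjusted p of 0.0575 to 0.0842) without DMSO 1 or TRi-1 3, with adjusted p-values of 0.000614 to 0.162 over the alternatives. ALDOC, a minor aldolase here at 5.38 CPM per kb in the senescent controls against 316 for ALDOA, fell by 0.39 ± 0.08 log2 units (adjusted p = 0.00501) with TRi-1, from 13.6, 13.4 and 14.7 CPM in DMSO to 10.6, 10.4 and 10.8 CPM. In the senescent controls ALDOC stood at 10.06, 11.52 and 11.30 CPM, below every DMSO library. ALDOC was called higher in DMSO than in senescent controls, a call lost with no filter or without senescent control 1 or DMSO 3.

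**Figure D2:**
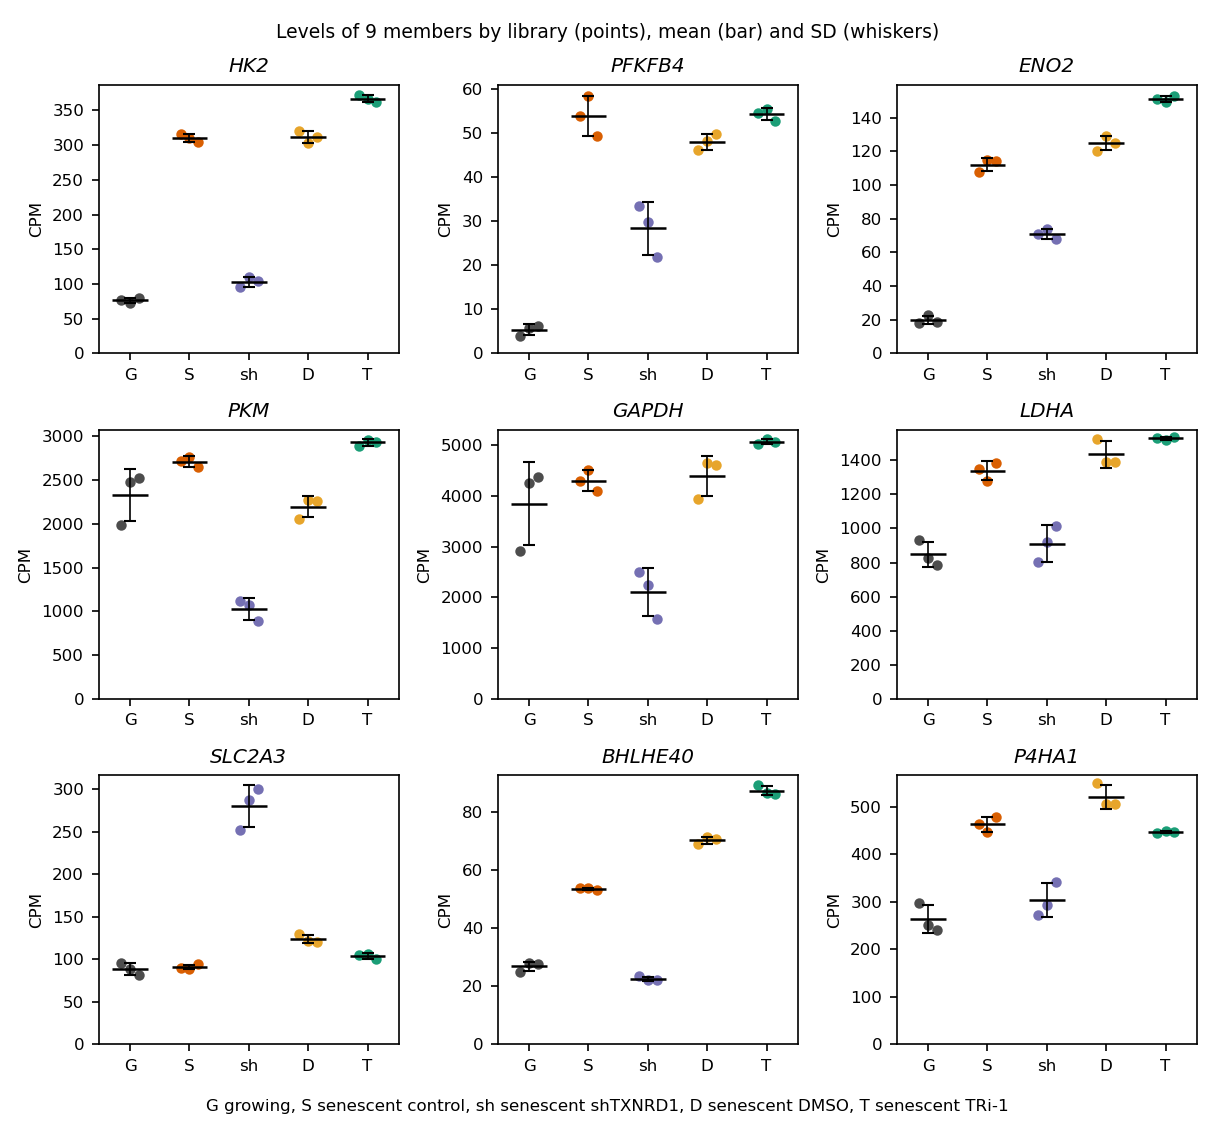
Levels of 9 members in CPM (vertical axes, from 0) by group; each point is a library, the bar the mean of 3 and the whiskers the SD. HK2, PFKFB4, ENO2, BHLHE40 and P4HA1 rise from growing to senescent control libraries and are lower with shTXNRD1, PKM and GAPDH are lowest with shTXNRD1, and SLC2A3 is highest there.

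The plot of 9 members by library sets HK2, whose hairpin libraries come back close to growing cells, beside ENO2 and PFKFB4, whose hairpin libraries stay well above growing cells. Against growing cells, the hairpin level of HK2 was higher by 0.43 ± 0.06 log2 units (adjusted p = 1.10e-05), that of ENO2 by 1.84 ± 0.08 log2 units (adjusted p = 5.14e-11) and that of PFKFB4 by 2.40 ± 0.16 log2 units (adjusted p = 1.06e-08). The same difference was -1.19 ± 0.10 log2 units (adjusted p = 6.81e-08) for PKM and -0.87 ± 0.17 log2 units (adjusted p = 0.000470) for GAPDH.

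The fate of pyruvate and lactate is set by LDHA and LDHB, subunits of lactate dehydrogenase, by the monocarboxylate transporters SLC16A1 (MCT1) and SLC16A3 (MCT4, a lactate exporter), and by PDK1 and PDK3, kinases that switch off pyruvate dehydrogenase and so keep pyruvate from the mitochondria. Of these 6, 5 rose and 1 fell with senescence, 1 rose and 1 fell with the hairpin, and 0 rose and 1 fell with TRi-1. Among all genes tested, 27.4% rose and 29.5% fell with senescence, 25.8% and 24.8% with the hairpin, and 7.64% and 12.2% with TRi-1. With 6 genes, the hairpin and TRi-1 counts were not far from these shares.

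LDHA stood at 931, 826 and 785 CPM in the growing controls, 1349.8, 1276 and 1385 in the senescent controls and 801, 918 and 1013 in the shTXNRD1 libraries. The senescent controls of LDHA lay above all growing and hairpin libraries, which overlapped each other. LDHA rose by 0.66 ± 0.08 log2 units (adjusted p = 1.05e-05) with senescence and fell by 0.55 ± 0.08 log2 units (adjusted p = 7.25e-05) with the hairpin. LDHB stood at 476, 429 and 398 CPM in the growing controls, 276, 261 and 279 in the senescent controls and 325, 400.5 and 458 in the shTXNRD1 libraries. LDHB ran the other way, lowest in the senescent controls: it fell by 0.68 ± 0.11 log2 units (adjusted p = 0.000110) with senescence, as the only member called lower there, and rose by 0.54 ± 0.11 log2 units (adjusted p = 0.000908) with the hairpin. With TRi-1 the changes were 0.09 ± 0.08 log2 units (adjusted p = 0.483) for LDHA and -0.08 ± 0.11 log2 units (adjusted p = 0.637) for LDHB. Under the GC offset the TRi-1 change of LDHA was 0.16 log2 units (adjusted p = 2.12e-05), with adjusted p-values of 2.12e-05 to 0.683 over the alternatives.

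SLC16A3 stood at 28.7, 68.1 and 88.9 CPM in the growing controls, 280.4, 318 and 195 in the senescent controls and 238, 122 and 49.7 in the shTXNRD1 libraries. SLC16A3 was higher in every senescent control than in any growing library, while its hairpin libraries ran from the senescent range (replicate 1) to the growing range (replicate 3), in the order of their GC content. It rose by 2.10 ± 0.50 log2 units (adjusted p = 0.00318), 4.28-fold, with senescence. The hairpin change was -0.95 ± 0.48 log2 units (adjusted p = 0.120) and, without shTXNRD1 1, -1.63 log2 units (adjusted p = 0.0125), with adjusted p-values of 0.0125 to 0.301 over the alternatives. With the GC offset the changes of SLC16A3 were 1.70 log2 units (adjusted p = 0.000345) with senescence and -0.63 log2 units (adjusted p = 0.0735) with the hairpin. SLC16A1 stood at 104, 86.6 and 84.7 CPM in the growing controls, 126, 121 and 124 in the senescent controls and 117, 138 and 155 in the shTXNRD1 libraries. SLC16A1 rose by 0.43 ± 0.10 log2 units (adjusted p = 0.00138) with senescence, and its hairpin change was 0.14 ± 0.09 log2 units (adjusted p = 0.223) and, without shTXNRD1 1, 0.23 log2 units (adjusted p = 0.0267), with adjusted p-values of 0.0267 to 0.727 over the alternatives. SLC16A1 stood at 178, 163 and 157 CPM in the DMSO libraries and 136, 133 and 138 in the TRi-1 libraries. The gene fell by 0.29 ± 0.09 log2 units (adjusted p = 0.0456) with TRi-1, a call lost when any 1 of the 6 libraries was left out: -0.33 to -0.24 log2 units (adjusted p of 0.0596 to 0.172) without DMSO 1, DMSO 2, DMSO 3, TRi-1 1, TRi-1 2 or TRi-1 3, with adjusted p-values of 4.34e-05 to 0.172 over the alternatives.

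PDK1 rose by 0.68 ± 0.09 log2 units (adjusted p = 1.28e-05) with senescence and PDK3, present at 1.15, 1.56 and 0.611 CPM in growing cells and 2.60, 2.13 and 3.20 CPM in senescent controls, rose by 1.23 ± 0.28 log2 units (adjusted p = 0.00179). The hairpin changes were 0.12 ± 0.09 log2 units (adjusted p = 0.263) for PDK1 and 0.48 ± 0.25 log2 units (adjusted p = 0.138) for PDK3. With the compared groups alone the hairpin change of PDK3 was 0.54 log2 units (adjusted p = 0.0491), with adjusted p-values of 0.0491 to 0.365 over the alternatives. Neither gene was called with TRi-1; under the GC offset the TRi-1 change of PDK1 was 0.20 log2 units (adjusted p = 0.00417), with adjusted p-values of 0.00417 to 0.937 over the alternatives.

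Where a step has paralogs, the balance between them differed between groups. The ratio of LDHA to LDHB, per kb of transcript and library, averaged 1.04 ± 0.0122 (SD, n = 3) in growing cells, 2.63 ± 0.0233 in senescent controls, 1.24 ± 0.0693 with the hairpin, 2.57 ± 0.139 in DMSO and 2.89 ± 0.0745 with TRi-1. The mean ratio was 2.52 times as high in senescent as in growing cells, and with the hairpin 0.472 times the senescent value. LDHA and LDHB have similar GC contents, 44.0% and 46.5%. The ratio of HK2 to HK1 averaged 0.335 ± 0.0109 in growing cells, 1.26 ± 0.0101 in senescent controls and 0.567 ± 0.0167 with the hairpin, so that HK2 exceeded HK1 per kb only in the senescent control, DMSO (1.23 ± 0.0185) and TRi-1 (1.22 ± 0.0462) groups. ENO2 stayed a minor enolase, at 0.0135 ± 0.00143 of ENO1 in growing cells and 0.0706 ± 0.00401 in senescent controls. The ratio of SLC2A3 to SLC2A1 was 0.348 ± 0.0301 in senescent controls and 0.797 ± 0.155 with the hairpin. These ratios are descriptions of libraries already described gene by gene and were not tested; an exact permutation test of 3 libraries against 3 cannot go below p = 0.1.

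**Figure D3:**
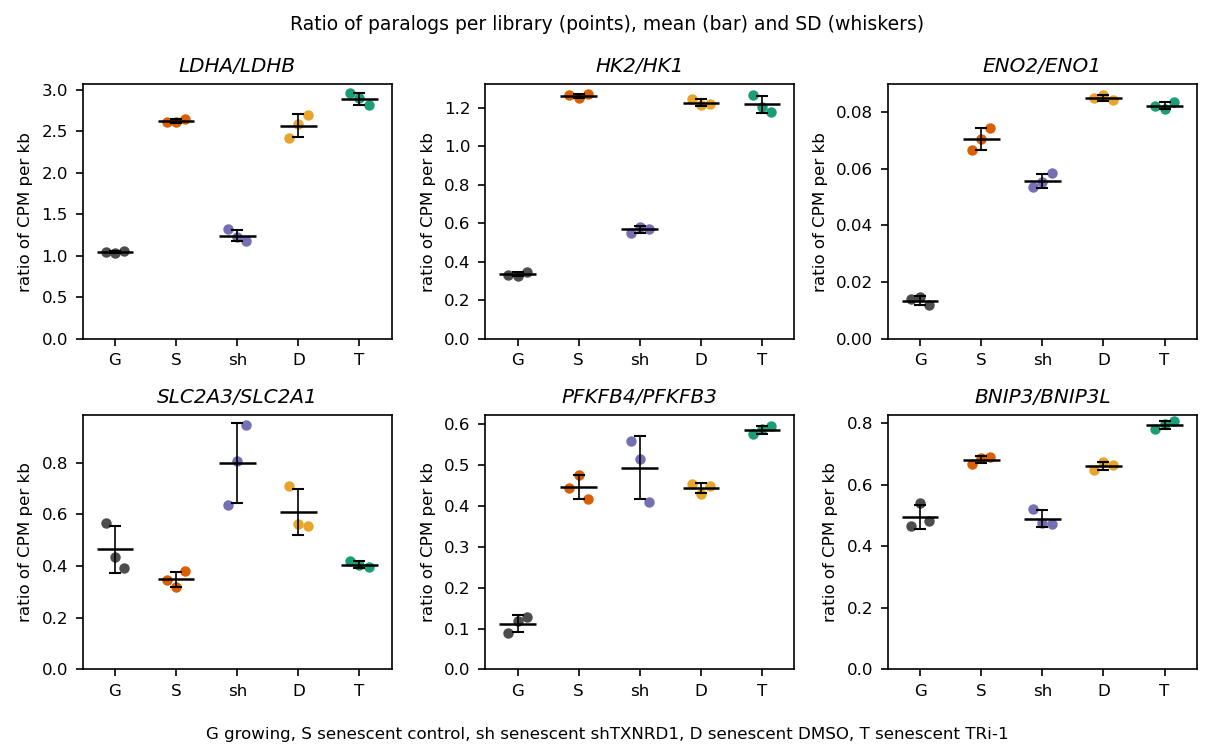
Ratio of paralogs, as CPM per kb over CPM per kb (vertical axes, from 0), in each library (points), with the group mean (bar) and SD (whiskers). LDHA/LDHB and HK2/HK1 are high in the senescent control, DMSO and TRi-1 groups and lower in growing and shTXNRD1 libraries.

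Among the oxygen sensors, HIF1A stood at 877, 741 and 704 CPM in the growing controls, 947, 928 and 1028 in the senescent controls and 803, 885 and 999 in the shTXNRD1 libraries. The senescent controls of HIF1A lay above all growing libraries, and the hairpin libraries overlapped with both groups. HIF1A rose by 0.32 ± 0.09 log2 units (adjusted p = 0.00572) with senescence, and its hairpin change was -0.11 ± 0.09 log2 units (adjusted p = 0.305). With the GC offset the senescence change of HIF1A was 0.56 log2 units (adjusted p = 7.26e-11). Its transcript has the lowest GC content of the members (36.4%), and under the GC offset the hairpin change was -0.35 log2 units (adjusted p = 4.85e-08), with adjusted p-values of 4.85e-08 to 0.639 over the alternatives. In DMSO HIF1A stood at 1121, 1063 and 1050.0 CPM and with TRi-1 at 911, 908 and 915 CPM; the TRi-1 libraries were the lower group, and the change was -0.24 ± 0.09 log2 units (adjusted p = 0.0647). HIF1A was called lower with TRi-1 under 4 of the alternatives: -0.27 log2 units (adjusted p = 0.0365) with upper-quartile scaling, -0.27 log2 units (adjusted p = 0.0175) at a mean CPM of at least 5, -0.25 log2 units (adjusted p = 0.000298) with the compared groups alone and -0.21 log2 units (adjusted p = 0.00555) without the low-GC libraries. Under the GC offset the change was -0.06 log2 units (adjusted p = 0.185).

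EGLN1, the main hydroxylase acting on HIF-1 alpha (PHD2) and itself a hypoxia response gene, stood at 59.1, 48.7 and 48.6 CPM in the growing controls, 83.8, 77.3 and 83.7 in the senescent controls and 59.9, 63.1 and 76.6 in the shTXNRD1 libraries. EGLN1 rose by 0.65 ± 0.09 log2 units (adjusted p = 3.51e-05) with senescence and fell by 0.29 ± 0.09 log2 units (adjusted p = 0.0156) with the hairpin. Without shTXNRD1 2 the hairpin change was -0.26 log2 units (adjusted p = 0.0552), with adjusted p-values of 2.86e-08 to 0.0552 over the alternatives. EGLN3 (PHD3), usually among the most inducible hypoxia genes, had at most 0.400 CPM in any library.

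All 11 hypoxia response members rose with senescence (median log2 fold change 1.03), beside 27.4% of all genes. With the hairpin 3 rose and 5 fell, beside 25.8% and 24.8% of all genes, and with TRi-1 2 rose and 1 fell, beside 7.64% and 12.2%. The rises with the hairpin and the fall with TRi-1 lay near these shares. The 11 members include pH regulators, mitophagy receptors, a collagen hydroxylase and transcriptional regulators.

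BHLHE40, a transcriptional repressor (DEC1) also tied to the circadian clock, stood at 24.9, 28.0 and 27.6 CPM in the growing controls, 53.9, 53.8 and 53.3 in the senescent controls and 23.4, 22.2 and 22.1 in the shTXNRD1 libraries. The libraries of a group lay close together. BHLHE40 rose by 1.00 ± 0.06 log2 units (adjusted p = 1.95e-09) with senescence and fell by 1.25 ± 0.06 log2 units (adjusted p = 5.76e-10) with the hairpin, which took every hairpin library below every growing one. BHLHE40 stood at 68.9, 71.3 and 70.8 CPM in the DMSO libraries and 89.2, 86.7 and 86.2 in the TRi-1 libraries. BHLHE40 rose by 0.31 ± 0.05 log2 units (adjusted p = 0.00118) with TRi-1, and DMSO libraries were above senescent controls by 0.39 ± 0.06 log2 units (adjusted p = 0.000273).

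CA9, carbonic anhydrase IX and a common marker of hypoxia, stood at 0.119, 0.0411 and 0 CPM in the growing controls, 0.406, 0.742 and 0.400 in the senescent controls and 0.4999, 0.481 and 0.297 in the shTXNRD1 libraries. CA9 was close to 0 here, with 4 counts over the 3 growing libraries and 33 over the senescent controls. It rose by 3.06 ± 0.55 log2 units (adjusted p = 0.000257) with senescence; without growing control 1, which holds most of the growing counts, the fitted rise was 4.23 log2 units (adjusted p = 0.000153; range over the alternatives 5.08e-05 to 0.00194). A fitted fold at such counts depends on the prior count. In DMSO CA9 stood at 1.296, 1.11 and 1.05 CPM and with TRi-1 at 0.764, 0.832 and 0.676 CPM.

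CA12, carbonic anhydrase XII, stood at 9.84, 10.1 and 9.73 CPM in the growing controls, 24.0, 24.2 and 26.3 in the senescent controls and 15.6, 17.2 and 15.7 in the shTXNRD1 libraries. CA12 rose by 1.33 ± 0.07 log2 units (adjusted p = 5.77e-10) with senescence and fell by 0.62 ± 0.07 log2 units (adjusted p = 3.02e-06) with the hairpin, without overlap in either case. From 24.3, 22.7 and 22.9 CPM in DMSO it fell by 0.28 ± 0.07 log2 units (adjusted p = 0.00824) with TRi-1, to 19.0, 19.6 and 19.0 CPM. With no filter this was -0.28 log2 units (adjusted p = 0.0669), with adjusted p-values of 0.00130 to 0.0669 over the alternatives. NDRG1, a stress-responsive gene, stood at 55.2, 64.7 and 66.3 CPM in the growing controls, 121, 127 and 132 in the senescent controls and 80.2, 84.0 and 70.1 in the shTXNRD1 libraries. NDRG1 rose by 1.03 ± 0.08 log2 units (adjusted p = 5.40e-08) and fell by 0.70 ± 0.08 log2 units (adjusted p = 4.78e-06) in the same comparisons. With the GC offset these changes of NDRG1 were 0.80 log2 units (adjusted p = 6.81e-08) and -0.47 log2 units (adjusted p = 2.61e-05). P4HA1, a collagen prolyl hydroxylase that fibroblasts need to fold collagen, stood at 297, 252 and 241 CPM in the growing controls, 464, 447 and 478 in the senescent controls and 272, 294 and 342 in the shTXNRD1 libraries. P4HA1 rose by 0.81 ± 0.09 log2 units (adjusted p = 1.96e-06) with senescence and fell by 0.61 ± 0.09 log2 units (adjusted p = 4.37e-05) with the hairpin, whose libraries overlapped with growing cells.

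HILPDA, which holds back lipolysis at lipid droplets, stood at 7.22, 9.08 and 7.94 CPM in the growing controls, 14.6, 12.9 and 13.9 in the senescent controls and 9.20, 9.45 and 9.12 in the shTXNRD1 libraries. HILPDA rose by 0.77 ± 0.09 log2 units (adjusted p = 4.90e-06) with senescence and fell by 0.57 ± 0.09 log2 units (adjusted p = 0.000106) with the hairpin. ANKRD37, an ankyrin repeat gene and known HIF-1 target of low abundance, stood at 1.03, 0.575 and 1.22 CPM in the growing controls, 3.33, 2.82 and 2.60 in the senescent controls and 4.60, 3.89 and 4.11 in the shTXNRD1 libraries. ANKRD37 rose in each of the 3 comparisons. It rose by 1.64 ± 0.21 log2 units (adjusted p = 1.47e-05) with senescence. With the hairpin it rose by 0.52 ± 0.19 log2 units (adjusted p = 0.0320), and leaving out a library gave 0.44 to 0.53 log2 units (adjusted p of 0.0558 to 0.109) without senescent control 2, senescent control 3, shTXNRD1 1 or shTXNRD1 3, with adjusted p-values of 0.00579 to 0.109 over the alternatives. From 1.81, 2.16 and 1.67 CPM in DMSO to 3.56, 3.37 and 3.25 CPM with TRi-1 it rose by 0.86 ± 0.20 log2 units (adjusted p = 0.00747), the largest rise of any member with TRi-1.

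The mitophagy receptors BNIP3 and BNIP3L and the histone demethylase KDM3A rose with senescence. BNIP3 rose by 1.49 ± 0.07 log2 units (adjusted p = 4.24e-10) with senescence, and its hairpin change was -0.03 ± 0.07 log2 units (adjusted p = 0.763) and, under the GC offset, -0.19 log2 units (adjusted p = 0.000292), with adjusted p-values of 0.000278 to 0.945 over the alternatives. Reads of BNIP3 may be shared with 42 named BNIP3 pseudogenes in the table, which together held 24.7% to 30.1% of the counts of the family in each library. The summed level of BNIP3 and these pseudogenes averaged 70.1 CPM in growing cells, 198 in senescent controls and 197 with the hairpin. BNIP3L rose by 1.03 ± 0.10 log2 units (adjusted p = 4.92e-07) with senescence and by 0.45 ± 0.10 log2 units (adjusted p = 0.00118) with the hairpin. Under the GC offset the hairpin change of BNIP3L was 0.25 log2 units (adjusted p = 1.52e-06). KDM3A rose by 1.04 ± 0.11 log2 units (adjusted p = 1.14e-06) with senescence and by 0.30 ± 0.10 log2 units (adjusted p = 0.0263) with the hairpin, and leaving out a library gave 0.22 to 0.28 log2 units (adjusted p of 0.0691 to 0.104) without senescent control 1, senescent control 2, shTXNRD1 2 or shTXNRD1 3, with adjusted p-values of 0.00519 to 0.104 over the alternatives. Under the GC offset the hairpin change of KDM3A was 0.13 log2 units (adjusted p = 0.0293). ADM, the vasodilator peptide adrenomedullin, rose by 0.57 ± 0.14 log2 units (adjusted p = 0.00424) with senescence. For ADM the GC offset gave a rise of 0.32 log2 units (adjusted p = 2.77e-06) there. Its hairpin change was -0.01 ± 0.14 log2 units (adjusted p = 0.958) and, under the GC offset, 0.22 log2 units (adjusted p = 0.000160), with adjusted p-values of 0.000160 to 1.00 over the alternatives.

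**Figure D4:**
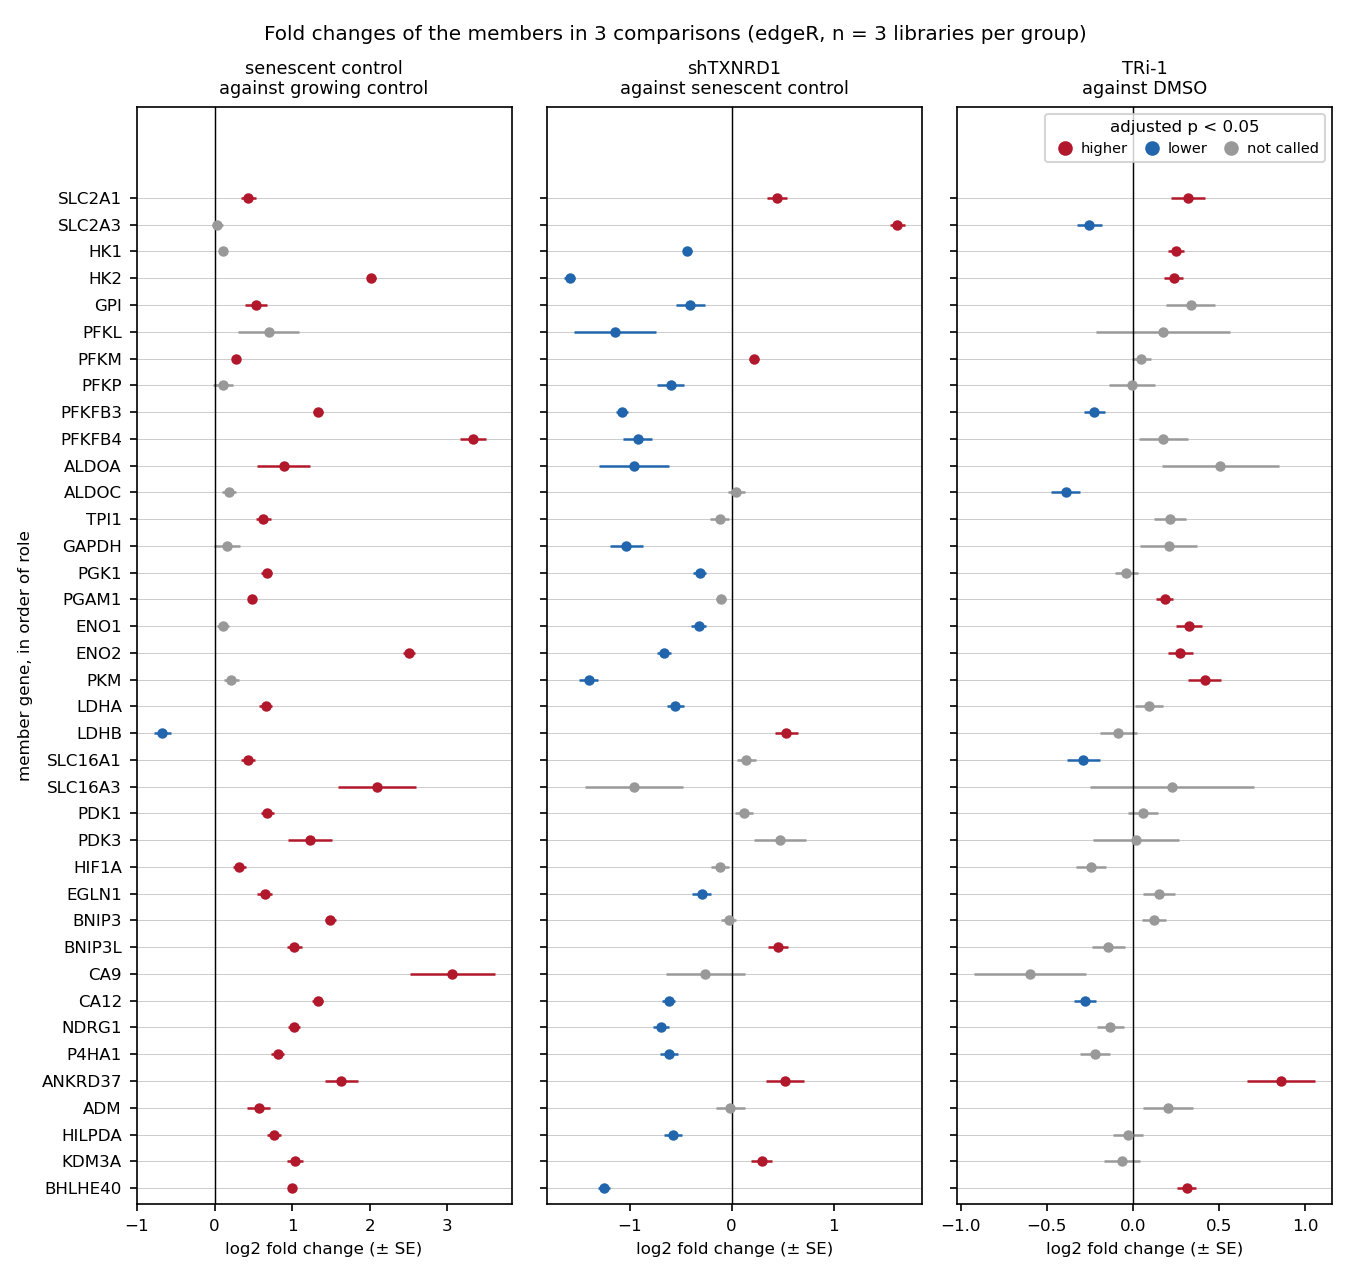
Log2 fold change (horizontal axes, a different range in each panel) of the 38 tested members in 3 comparisons; points are the edgeR estimates, whiskers the SE, red and blue mark adjusted p under 0.05. The left panel holds 29 red points and 1 blue, the middle panel 7 red and 20 blue, and the right panel 9 red and 5 blue.

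The plot of fold changes shows the size of the 3 sets of changes: with senescence up to 3.33 log2 units (PFKFB4), with the hairpin from -1.59 (HK2) to 1.62 (SLC2A3), and among members called with TRi-1 from -0.39 (ALDOC) to 0.86 (ANKRD37).

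HIF-1 binds the sequences ACGTG and GCGTG, the core of the hypoxia response element. RefSeq promoters (GRCh38.p14, 250 bases before to 50 bases after the annotated start) were found for 34 of the 39 members, as 62 promoters; BNIP3L, NDRG1, HILPDA, SLC16A1 and SLC2A3 had no entry. Both motifs were searched on both strands, and CACGTG, which reads ACGTG on each strand, counts as 2 matches. ACGTG was in 40.3% of the member promoters, 25.0% of the promoters of genes tested here and 21.4% of all promoters; GCGTG was in 41.9%, 47.6% and 36.5%, and either motif in 69.4%, 59.6% and 48.4%. Members with many promoters weigh more in these shares. Per gene, with a match in any of its promoters, ACGTG was found for 61.8% of the 34 members, 31.8% of genes tested and 24.9% of all genes with a promoter, GCGTG for 61.8%, 57.4% and 40.6%, and either motif for 94.1%, 69.0% and 52.4%. GCGTG was thus less frequent among the members than among tested genes per promoter and more frequent per gene. A gene with more promoters has more places for a match. Members had more of them, 62 for 34 genes, against 16479 for 11338 genes tested and 35116 for 27305 in all. The promoters of 5 members with changes described above are shown 5′ to 3′ on the strand of the gene, with each match in capitals. CA9 and ANKRD37 are hypoxia markers that rose with senescence, at chr9:35673678-35673977 (+) and chr4:185396591-185396890 (+); BHLHE40 and ENO2 rose with senescence and fell with the hairpin, at chr3:4979187-4979486 (+) and chr12:6914330-6914629 (+); and PKM fell with the hairpin, at chr15:72231141-72231440 (-).
CA9: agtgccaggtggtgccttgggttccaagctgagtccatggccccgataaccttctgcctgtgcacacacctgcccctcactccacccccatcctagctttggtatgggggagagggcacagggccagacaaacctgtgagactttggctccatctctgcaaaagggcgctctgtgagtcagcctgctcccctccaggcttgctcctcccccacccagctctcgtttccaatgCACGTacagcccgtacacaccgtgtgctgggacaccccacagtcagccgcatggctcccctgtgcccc
ANKRD37: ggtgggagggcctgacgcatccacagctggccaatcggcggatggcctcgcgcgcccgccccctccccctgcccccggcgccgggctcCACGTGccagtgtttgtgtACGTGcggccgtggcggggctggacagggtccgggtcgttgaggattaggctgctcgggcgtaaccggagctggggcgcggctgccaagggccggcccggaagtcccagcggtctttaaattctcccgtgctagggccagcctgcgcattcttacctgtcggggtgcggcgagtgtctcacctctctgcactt
BHLHE40: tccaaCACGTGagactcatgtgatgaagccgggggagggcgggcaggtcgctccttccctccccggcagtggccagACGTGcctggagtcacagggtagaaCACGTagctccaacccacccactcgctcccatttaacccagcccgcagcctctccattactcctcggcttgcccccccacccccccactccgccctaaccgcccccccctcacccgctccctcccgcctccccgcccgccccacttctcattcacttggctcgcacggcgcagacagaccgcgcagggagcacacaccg
ENO2: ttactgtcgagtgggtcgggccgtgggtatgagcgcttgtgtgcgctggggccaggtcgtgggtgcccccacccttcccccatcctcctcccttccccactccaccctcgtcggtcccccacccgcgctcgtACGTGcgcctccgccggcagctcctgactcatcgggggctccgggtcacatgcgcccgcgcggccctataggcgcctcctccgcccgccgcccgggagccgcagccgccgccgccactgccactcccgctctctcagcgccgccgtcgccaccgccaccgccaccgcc
PKM: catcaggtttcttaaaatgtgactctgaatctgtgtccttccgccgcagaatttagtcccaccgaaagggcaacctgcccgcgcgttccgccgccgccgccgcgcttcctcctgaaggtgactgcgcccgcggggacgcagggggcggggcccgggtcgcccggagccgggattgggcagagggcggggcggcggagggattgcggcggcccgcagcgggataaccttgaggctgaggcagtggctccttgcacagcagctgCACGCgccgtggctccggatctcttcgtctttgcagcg
The sequences hold 1 match in CA9, 3 in ANKRD37, 4 in BHLHE40, 1 in ENO2 and 1 in PKM. Overlapping matches run together in capitals, and CACGT and CACGC are the motifs on the other strand. A match describes these letters only; binding was not measured.

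The hairpin lowers TXNRD1 mRNA and TRi-1 inhibits the protein, so the difference between their effects was tested directly, as the hairpin change minus the TRi-1 change. Of the 38 members, 5 were called higher and 20 lower in this difference, beside 22.1% and 19.5% of all genes (41.7% either way). The difference was -1.82 ± 0.08 log2 units (adjusted p = 1.18e-09) for HK2, -1.82 ± 0.13 log2 units (adjusted p = 2.05e-07) for PKM, -1.56 ± 0.08 log2 units (adjusted p = 4.91e-09) for BHLHE40, -1.24 ± 0.23 log2 units (adjusted p = 0.00102) for GAPDH and -1.10 ± 0.20 log2 units (adjusted p = 0.000732) for PFKFB4. HK1, HK2, ENO1, ENO2, PKM and BHLHE40 fell with the hairpin and rose with TRi-1. The share of all genes called in these opposite directions is not given here, so no count is read from these names. SLC2A1 and ANKRD37 rose in both, PFKFB3 and CA12 fell in both, and SLC2A3 rose with the hairpin and fell with TRi-1. The DMSO level from which TRi-1 is measured differed from the senescent controls for some of these genes. In senescent controls, DMSO and TRi-1, SLC2A1 averaged 267, 209 and 261 CPM, ANKRD37 2.91, 1.88 and 3.40, PKM 2712, 2198 and 2932, and SLC2A3 90.9, 124 and 104. Of other members that fell with TRi-1, ALDOC averaged 10.96, 13.93 and 10.63 CPM and SLC16A1 123.6, 165.9 and 135.8, in the same order. Under the GC offset the change of ENO1 was -0.05 log2 units (adjusted p = 0.604) with the hairpin and 0.18 log2 units (adjusted p = 0.0934) with TRi-1, neither called. For SLC2A1, which rose in both, the difference was 0.13 ± 0.14 log2 units (adjusted p = 0.473); under the GC offset it was 0.29 log2 units (adjusted p = 0.00469) and without the low-GC libraries 0.29 log2 units (adjusted p = 0.00666), with adjusted p-values of 0.00469 to 0.845 over the alternatives. The hairpin and the inhibitor had different controls, and the labels do not say that they were run at the same time.

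DMSO libraries were also compared with senescent controls. Against senescent controls, 6 of the 38 members were higher in DMSO and 3 lower, beside 8.36% and 7.87% of all genes (16.2% either way). Of the 3 lower calls (SLC2A1, PKM and ANKRD37), 0 remained without senescent control 1, senescent control 2 or DMSO 1, and 1 (SLC2A1) remained without senescent control 3, DMSO 2 or DMSO 3. In these settings 5.17% to 5.945% of all genes were lower. The 6 higher calls became 4 without senescent control 1 or DMSO 3, where 5.69% and 5.98% of all genes were higher. SLC2A3 was higher by 0.45 ± 0.07 log2 units (adjusted p = 0.000787), HILPDA by 0.45 ± 0.09 log2 units (adjusted p = 0.00269) and SLC16A1 by 0.42 ± 0.09 log2 units (adjusted p = 0.00690), while HK2 differed by 0.01 ± 0.06 log2 units (adjusted p = 0.973). The hairpin cells against growing cells had 24 members higher and 6 lower, beside 32.4% and 30.5% of all genes (62.9% either way), with HK1, GAPDH and PKM lower under every alternative run. That comparison shares the hairpin libraries with the comparison of hairpin and senescent control cells.

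The members are richer in GC than most genes, with a median transcript GC content of 52.8% against 48.0% for genes tested. In the plot against library GC, ALDOA, SLC16A3 and PFKL climb with GC within every group, LDHB tends to be higher in the low-GC libraries, and HK2 does not follow it. The libraries of TRi-1 all had a higher mean GC (48.4% to 48.7%) than those of DMSO (47.5% to 48.3%), and the hairpin libraries reached lower (46.5% to 48.1%) than the senescent controls (47.8% to 48.4%). Without the 3 low-GC libraries, 31 members rose and 1 fell with senescence, beside 29.5% and 30.5% of all genes; 7 rose and 22 fell with the hairpin, beside 26.4% and 27.2%; and 13 rose and 8 fell with TRi-1, beside 12.1% and 14.97%. With the GC offset 30 rose and 1 fell with senescence, beside 34.4% and 30.5% of all genes; 9 rose and 22 fell with the hairpin, beside 27.2% and 31.8%; and 13 rose and 8 fell with TRi-1, beside 17.5% and 16.4%. The mean GC of a library is computed from the same counts, and its part in these results was not tested.

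**Figure D5:**
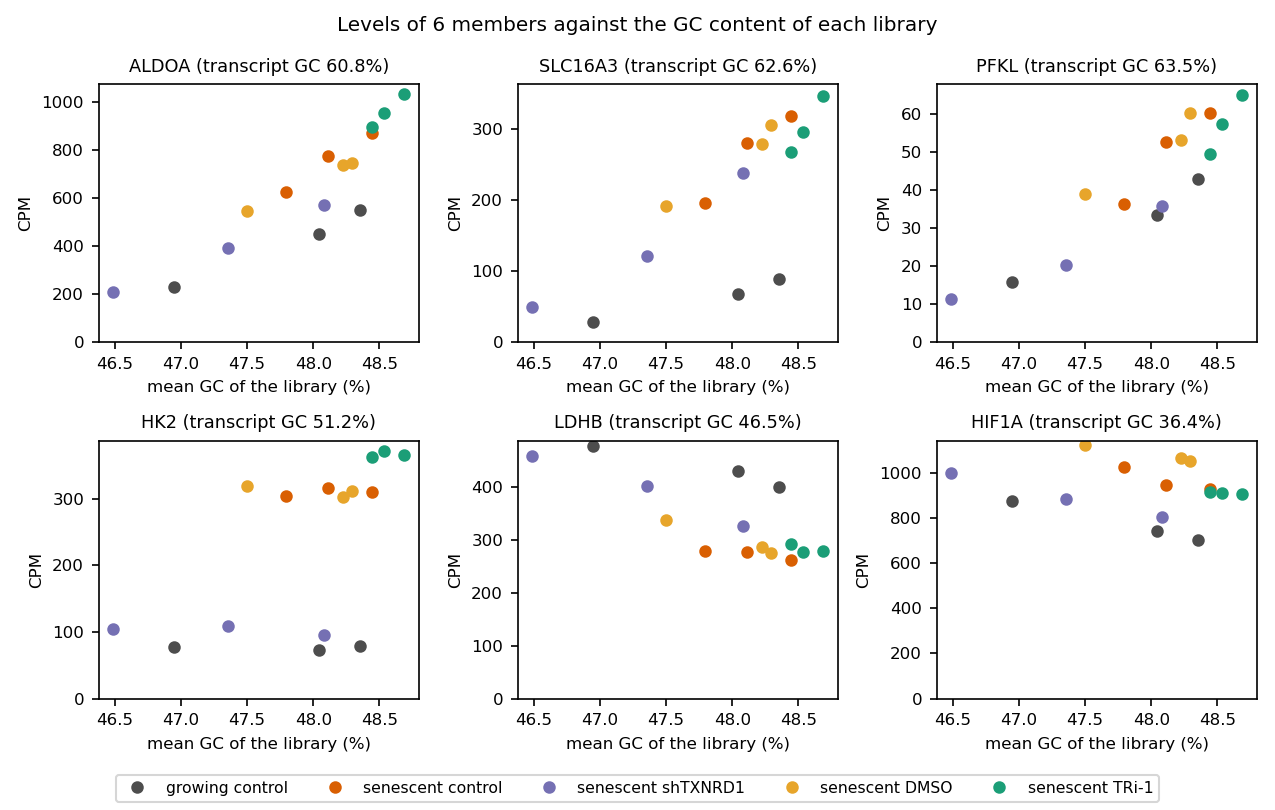
Level of 6 members in CPM (vertical axes, from 0) against the mean GC content of the counted transcripts of each library in percent (horizontal axes); each point is a library, coloured by group. ALDOA, SLC16A3 and PFKL are lowest in the library of lowest GC in each group, while HK2 keeps the growing and shTXNRD1 libraries apart from the other groups.

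As a group, the members held 1.31% ± 0.14 (SD, n = 3) of all counts in growing cells, 1.68% ± 0.04 in senescent controls, 1.26% ± 0.10 with the hairpin, 1.63% ± 0.06 in DMSO and 1.92% ± 0.02 with TRi-1. The libraries of the senescent controls lay above all growing and hairpin libraries, and those of TRi-1 above all others. Abundant members weigh most in this share: GAPDH alone held 0.385%, 0.420%, 0.229%, 0.420% and 0.5025% in the same order of groups. In the growing, senescent control, hairpin and DMSO groups the share was lowest in the library of lowest GC, at 1.15%, 1.63%, 1.15% and 1.57%. The TRi-1 libraries did not follow this. The part of library GC was not tested.

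Other genes of these pathways were counted from fixed lists; with senescence 27.4% of all genes rose and 29.5% fell, with the hairpin 25.8% and 24.8%, and with TRi-1 7.64% and 12.2%. Of 34 other hypoxia response genes tested, 27 rose and 4 fell with senescence (median log2 fold change 1.08), 12 rose and 8 fell with the hairpin and 4 rose and 10 fell with TRi-1. AK4, a mitochondrial adenylate kinase, rose by 4.25 ± 0.12 log2 units with senescence and PPFIA4, liprin alpha 4, by 3.87 ± 0.19; HMOX1, haem oxygenase 1, fell by 1.15 ± 0.16. WSB1, part of a ubiquitin ligase, rose by 1.502 ± 0.08 log2 units with the hairpin and fell by 0.67 ± 0.08 with TRi-1, and EDN1, endothelin 1, rose by 0.89 ± 0.07 and 0.92 ± 0.07. VEGFA, the angiogenic growth factor, averaged 58.0 CPM in growing cells, 289.9 in senescent controls and 286 with the hairpin, a rise with senescence of 2.32 ± 0.08 log2 units. Of 14 other oxygen sensing genes, 4 rose and 6 fell with senescence, the rises at a share near that of all genes; EPAS1, which encodes HIF-2 alpha, fell by 1.77 ± 0.07 log2 units, from a mean of 1748 to 514 CPM, while HIF1A rose. CITED2, a competitor of HIF-1 for its coactivator, rose by 1.44 ± 0.06 log2 units with the hairpin.

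Of 28 other glycolysis and pyruvate genes tested, 11 rose and 9 fell with senescence and 11 rose and 6 fell with the hairpin, beside 27.4% and 29.5% and 25.8% and 24.8% of all genes. The falls lay near these shares. With TRi-1 0 of the 28 rose and 5 fell, beside 7.64% and 12.2% of all genes. PDK4, a further pyruvate dehydrogenase kinase of low level here, rose by 3.25 ± 0.24 log2 units with senescence and fell by 2.07 ± 0.19 with TRi-1. BPGM, bisphosphoglycerate mutase, fell by 2.87 ± 0.10 log2 units with the hairpin. Beside the same senescence shares, 1 rose and 5 fell of the 8 pentose phosphate genes; TALDO1, transaldolase, fell by 0.90 ± 0.12 log2 units. Of 9 glycogen genes tested, 3 rose and 4 fell with senescence; PPP1R3C, a glycogen-targeting phosphatase subunit, rose by 2.37 ± 0.09 log2 units with senescence and fell by 0.98 ± 0.08 with the hairpin. All changes named in these lists had adjusted p under 0.05.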

How the data were processed

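The values are counts: the deposited table gives, for each Ensembl gene, a whole number per library. Per the submitters' processing notes RSEM 1.2.3 and DESeq2 were used, with hg19 and mm10 as builds and no role for each. The sources used here give no annotation and no strand setting. Per the labels' protocols, RNA was treated with DNase and sequenced from KAPA RNA HyperPrep libraries in paired-end runs of 75 bp.

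A symbol was matched to 52300 identifiers; the rest carried 0.680% of the counts. TMM scaling, filterByExpr and the robust quasi-likelihood F test of edgeR 4.0.16 (R 4.3.3) were applied to all 15 libraries, with a coefficient per group and 10 residual degrees of freedom. Two-sided p-values were adjusted by Benjamini-Hochberg over 15994 genes within a comparison. Length and GC content came from GENCODE 29 (GRCh38) by gene identifier; per-length levels use the union of annotated exons, so their ratios between genes depend on it. The GC offset was a lowess curve (span 0.3) of each library's log ratio against transcript GC content. Alternatives were DESeq2 1.42.0, limma-voom 3.58.1, other scalings and filters, a replicate block, the GC offset, the compared groups alone, each replicate left out and, chosen after seeing the data, the 3 low-GC libraries left out. No pair of libraries in a group agreed within sampling noise. Replicate numbers were not used as pairs in the reported fit. Correlations of same-numbered deviations from the group mean ran from -0.611 to 0.321. Growing control 1 and shTXNRD1 3, both low in GC, reached 0.631. With such differences in library GC, these correlations cannot tell whether cultures were paired. The fit was tested on simulated data. Library values are printed for HIF1A, GAPDH, the member of each role with the largest called change in each of the 3 main comparisons, members called in opposite directions, and a few others. Members and lists were chosen with earlier results of these data known. A gene that the naming rule would have named is not reported here.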

Additional observations from a re-analysis of the deposited data

How the results depend on the processing

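Of 30 members called with senescence, 29 kept call and direction under every alternative in which they were tested (ALDOA did not). With the hairpin 20 of 27 did, with TRi-1 5 of 14. For senescence CA9 was tested in 16 alternatives and PDK3 and ANKRD37 in 17, against 18 for members such as HK2. Counts that moved by over 1.5 times were the following, with higher before lower. For TRi-1 against DMSO (9 and 5), 15 rose with the compared groups alone, and 3 fell with no filter, 8 with the GC offset, 9 with the compared groups alone and 8 without the low-GC libraries; leaving out 1 replicate gave 2 to 4 that fell. For the hairpin change minus the TRi-1 change (5 and 20), 8 were higher with the GC offset, with or without the replicate block. For DMSO against senescent controls (6 and 3), 12 were higher with the GC offset, 13 with the offset and block, 11 with the compared groups alone and 10 without the low-GC libraries; 1 was lower at a mean CPM of at least 5, 1 with the replicate block, 7 with the GC offset, 7 with offset and block, 5 with the compared groups alone, 5 without the low-GC libraries, and 0 to 2 with a replicate left out. For shTXNRD1 against growing cells (24 and 6), 3 were lower with the compared groups alone. In a window of 150 bases before and 50 after the start, 56.5% of member promoters held either motif. In the full window, which is longer, the share was 69.4%. For promoters of genes tested here it was 48.3% in the shorter window and 59.6% in the full one. For all promoters it was 38.8% and 48.4%. The shares of all genes called moved in the same settings. For TRi-1 they were 7.64% and 12.2% as reported, 17.5% and 16.4% with the GC offset, 15.7% and 20.3% with the compared groups alone, 12.1% and 14.97% without the low-GC libraries and 2.58% and 5.32% with no filter. With 1 replicate left out they were 4.74% to 5.185% and 8.40% to 9.51%. For DMSO they were 8.36% and 7.87%, 15.3% and 16.9% (offset and block 14.4% and 15.8%), 14.9% and 10.1% and 12.1% and 12.5%. The lower share for DMSO was 9.955% at a mean CPM of at least 5 and 6.63% with the replicate block. With a replicate left out it was 5.17% to 5.945%. For the hairpin change minus the TRi-1 change they were 22.1% and 19.5% and, with the GC offset, 21.4% and 27.9%; for shTXNRD1 against growing cells 32.4% and 30.5% and, with the compared groups alone, 30.6% and 24.4%. For the counts of calls the cause was not tested. With the replicate block, 28 members rose and 1 fell with senescence, beside 26.2% and 28.5% of all genes. With the hairpin 7 rose and 18 fell, beside 24.7% and 23.4%. With TRi-1 9 rose and 4 fell, beside 6.365% and 10.8%, and the falls lay near their share. As far as the labels say, the replicates share only a number. The GC offset, without and with the block, reversed ADM with the hairpin (0.22 and 0.22 log2 units, -0.01 in the reported fit) and, in the hairpin change minus the TRi-1 change, HIF1A (-0.29 and -0.29, 0.13 reported), ADM (0.15 and 0.15, -0.21 reported) and PDK1 (-0.27 and -0.27, 0.07 reported). No scaling moved the median of all genes by over 0.1 log2 units. Per length or per count, the fold of each paralog ratio between groups was the same, but the ratio itself depends on the lengths used. With 4 counts of CA9 over the growing libraries, depth limits its fold.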
